A study of Mus musculus with 30 samples.

Results

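The comparison described here is the change over 2 h of culture in primary mouse microglia labelled PD-1 KO, without amyloid-beta. It sets the 3 libraries of the 2 h cultures against the 3 libraries of the 0 h cultures, chosen by their labelled condition, and so uses 6 of the 30 libraries of the series. The cells came from mouse brain, were grown as a primary culture for 5 to 8 days and were then shaken off, and the libraries were made from total RNA and sequenced. The series also holds the WT genotype, an 8 h time point and cultures given conditioned medium that contains amyloid-beta, in 10 groups of 3 libraries. The labels do not give the medium of the untreated cultures, the knockout allele, the strain or the age of the mice. They also do not say whether the 3 libraries of a group came from different animals. The p-values therefore measure only the spread between libraries of a group, pooled over all 30 libraries of the series. No 2 h culture was compared with a culture left unhandled for the same time, so the passage of time and the handling that goes with it cannot be told apart.

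Microglia are the resident macrophages of the brain. When such cells are detached, plated or stimulated, kinase cascades such as the MAP kinase pathway and NF-kB switch on immediate early genes within minutes. Many of these encode short-lived transcription factors (the Fos, Egr and Nr4a families), and others encode the brakes of the same cascades, the dual-specificity phosphatases (Dusp) and the Sprouty proteins (Spry). Cytokines such as IL-1 beta and TNF and the chemokines are transcribed in the next wave. PD-1, encoded by Pdcd1, is an inhibitory receptor known best from T cells, and its ligand PD-L1 is encoded by Cd274.

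Pdcd1 (ENSMUSG00000026285, chromosome 1, 94038305 to 94052553, minus strand, GRCm38) was read first, because it is the gene named by the label. Its deposited value was 12.4, 7.11 and 9.14 in the 0 h libraries labelled PD-1 KO and 12.8, 16.4 and 8.19 in the 2 h libraries. These values rest on 13, 5, 8, 13, 20 and 4 reads. All 6 libraries labelled WT at 0 h and 2 h were listed at the floor of 1, below which nothing is shown. Reads of the gene were thus found under the PD-1 KO label and not under the WT label, which goes against the labels as they are written. Without the allele it is not known whether these reads lie outside a deleted part. The groups are therefore called by their labels throughout, and every direction between the labels rests on those labels being right. Over time the Pdcd1 value did not pass the test (log2 difference of 0.34 with a standard error (SE) of 0.41, adjusted p = 0.857).

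A deposited value is a gene's read count divided by a size factor of its library. The 6 libraries held between 4648748 and 11469291 reads over the 13788 genes of the file, and the shallowest was library 3 at 2 h. Libraries are numbered 1 to 3 within a group in the order of their accessions, which gives no pairing between groups. The log2 difference is taken on value + 1 and always runs from 0 h to 2 h, so a negative number is a lower level at 2 h. A gene was called when its Benjamini-Hochberg adjusted p in limma, over the 13722 genes tested, was under 0.05. A total of 87 genes (0.634%) were called, 49 of them higher (0.357%) and 38 lower (0.277%) at 2 h. The falls were the larger changes, with 13 genes lower by over 2-fold and 7 higher by over 2-fold. Over all genes tested the median difference was 0.02, and 1195 genes (8.71%), 699 higher and 496 lower, had an unadjusted p under 0.05. The 3 and 3 libraries did not overlap for 2250 genes (16.4%), among them all 87 called. The spread behind these p-values was pooled over all 30 libraries, and a fit to the 6 libraries alone gave 45 calls, 38 of them among the 87. Leaving out a library at a time left 46 to 103 calls. The count fell below 58 without library 3 at 0 h (56 calls) or without library 1, 2 or 3 at 2 h (46, 50 and 46 calls), and 33 of the 87 genes were called in all 6 of these fits.

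Of 16 feedback inhibitors of the MAP kinase pathway tested, 4 fell and none rose at 2 h. The other 12 did not pass the test, 5 of the 16 had a positive difference, and the median log2 difference was -0.29. Of the 16, 0 were higher and 8 lower at an unadjusted p under 0.05 (50%, beside 8.71% of all genes). Spry4, a Sprouty inhibitor of receptor tyrosine kinase signalling, was at 58.1, 56.9 and 57.1 at 0 h and at 12.8, 18.9 and 6.14 at 2 h. Every 2 h library lay far below every 0 h library, and the fall was 4.66-fold (log2 -2.22, SE 0.35, adjusted p = 6.96e-04). Dusp5, a nuclear phosphatase of ERK, was at 67.6, 96.7 and 62.8 at 0 h and at 13.8, 23.8 and 28.7 at 2 h. It fell 3.40-fold (log2 -1.76, SE 0.27, adjusted p = 5.75e-04). Spry4 and Dusp5 kept their call when any of the 6 libraries was left out, but not in a fit to the 6 libraries alone, where their highest adjusted p values were 0.0652 and 0.0776.

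Dusp1, a phosphatase of JNK and p38, moved the same way at a higher value. Its level was 924, 1058 and 875 at 0 h and 467, 429 and 407 at 2 h, with no overlap. The fall was 2.19-fold (log2 -1.13, SE 0.16, adjusted p = 1.78e-04). Dusp6, the cytoplasmic phosphatase of ERK, went from 715, 772 and 765 to 437, 455 and 448, a 1.68-fold fall (log2 -0.75, SE 0.11, adjusted p = 1.90e-04). Libraries of a group differed little for Dusp6, with a standard deviation (SD) of 31.1 around a mean of 751.0 at 0 h and of 9.28 around 446.7 at 2 h (n = 3 each). Spry2, also of this list, had a mean of 204.7 at 0 h and 114.7 at 2 h and did not pass (log2 -0.83, adjusted p = 0.0591).

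**Figure D1:**
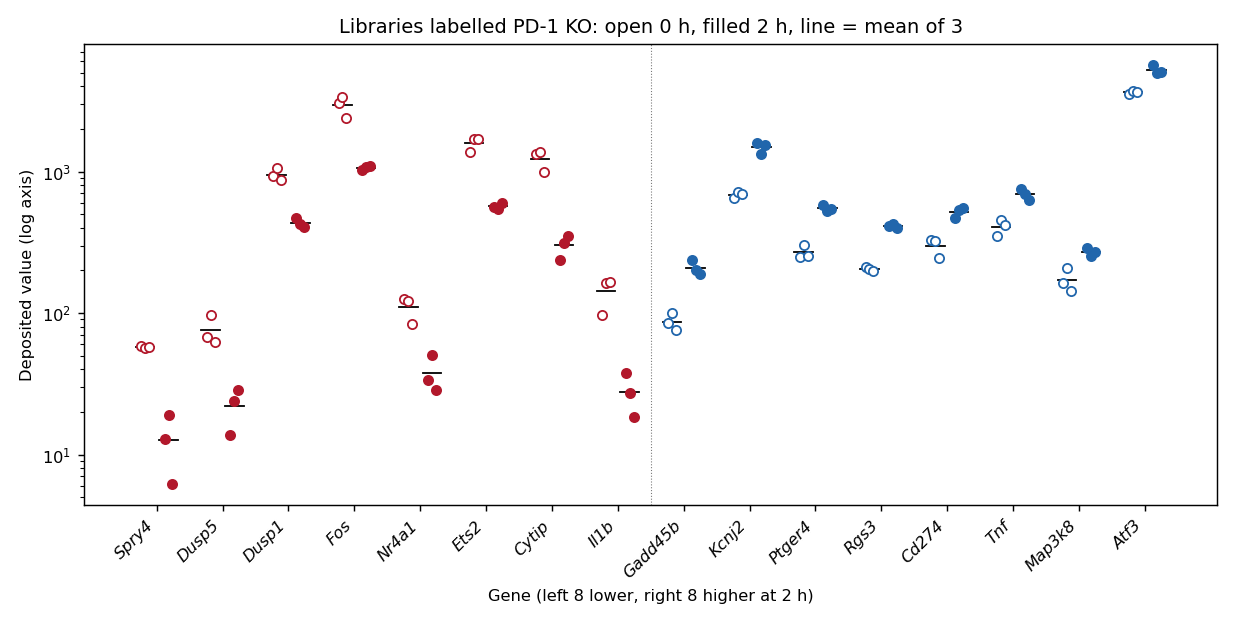
Deposited values on a log axis of 16 called genes in the 6 libraries labelled PD-1 KO, with open points for 0 h, filled points for 2 h and a line at the mean of 3. For each gene the open and filled points do not overlap, as for Dusp1 (875 to 1058 at 0 h, 407 to 467 at 2 h) and for Ptger4 (249 to 304 at 0 h, 527 to 579 at 2 h).

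The immediate early transcription factors did not move as a block. Of 30 tested, 5 fell, 1 rose, and the median was -0.12. At an unadjusted p under 0.05, 3 were higher and 8 lower (36.7%, beside 8.71% of all genes). Fos (chromosome 12, 85473890 to 85477273, plus strand), a partner in the AP-1 dimer, had values of 3055, 3358 and 2389 at 0 h and of 1018, 1085 and 1097 at 2 h. The 3 later libraries lay within a narrow band well under the earlier ones (2.72-fold lower, log2 -1.44, SE 0.15, adjusted p = 1.53e-06). Fosl2, a Fos relative, went from 628, 657 and 570 to 325, 346 and 321 (log2 -0.90, SE 0.14, adjusted p = 6.56e-04). The Fos partner Jun had a mean of 1153 at 0 h and 1184 at 2 h, with overlapping libraries, and did not pass (log2 0.03, adjusted p = 0.954).

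Nr4a1, an orphan nuclear receptor induced by calcium and cAMP signals, had values of 126, 121 and 83.4 at 0 h and of 33.6, 50.1 and 28.7 at 2 h. It fell 2.92-fold (log2 -1.55, SE 0.31, adjusted p = 0.0105), and lost the call without library 2 at 0 h or without library 1 or 3 at 2 h. Egr1, a zinc finger factor downstream of ERK, moved from 475, 509 and 523 to 337, 306 and 297 (log2 -0.68, SE 0.11, adjusted p = 6.56e-04). Ier3, an early gene linked to cell survival, moved from 251, 255 and 217 to 125, 150 and 129 (log2 -0.84, SE 0.18, adjusted p = 0.0229). The Ier3 call was lost in 4 of the 6 fits that leave a library out, those without library 1 or 2 at 0 h and without library 1 or 3 at 2 h.

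Atf3, a stress-induced repressor of inflammatory transcription, was the 1 member that rose. It went from 3528, 3699 and 3653 to 5666, 4955 and 5086, a 1.44-fold rise (log2 0.53, SE 0.10, adjusted p = 0.00577) that was not called without library 1 at 2 h. Ets2, an Ets factor phosphorylated by ERK and outside the list, showed the lowest adjusted p of all genes. Its values were 1374, 1694 and 1699 at 0 h and 565, 540 and 604 at 2 h (2.78-fold lower, log2 -1.47, SE 0.10, adjusted p = 6.44e-10).

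The sequences before the start sites of 3 of the fallen genes are printed because Fos, Dusp1 and Dusp5 fell together and each holds a different motif of a signal-regulated factor. They are the 250 bases before the RefSeq start (GRCm38.p6), 5′ to 3′ on the strand of the gene, with the motif in capitals. The Fos window (chr12:85473640-85473889, plus strand) holds the NF-kB motif from base -214 to -205, counted back from the start site. The Dusp1 window (chr17:26508473-26508722, minus strand) holds the cAMP response element TGACGTCA, the site of CREB, from base -143 to -136. The Dusp5 window (chr19:53528895-53529144, plus strand) holds a pair of CArG boxes, the site of SRF, the first of them from base -82 to -73.
Fos: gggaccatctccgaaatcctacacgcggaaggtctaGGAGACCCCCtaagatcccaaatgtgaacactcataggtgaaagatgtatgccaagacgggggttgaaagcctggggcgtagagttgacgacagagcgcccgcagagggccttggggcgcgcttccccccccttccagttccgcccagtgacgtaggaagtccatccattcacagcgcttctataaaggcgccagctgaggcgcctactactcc
Dusp1: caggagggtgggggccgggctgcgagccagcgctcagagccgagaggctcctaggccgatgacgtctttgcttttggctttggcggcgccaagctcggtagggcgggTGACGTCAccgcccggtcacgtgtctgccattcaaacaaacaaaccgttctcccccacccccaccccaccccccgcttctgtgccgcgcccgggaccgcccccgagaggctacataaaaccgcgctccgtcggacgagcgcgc
Dusp5: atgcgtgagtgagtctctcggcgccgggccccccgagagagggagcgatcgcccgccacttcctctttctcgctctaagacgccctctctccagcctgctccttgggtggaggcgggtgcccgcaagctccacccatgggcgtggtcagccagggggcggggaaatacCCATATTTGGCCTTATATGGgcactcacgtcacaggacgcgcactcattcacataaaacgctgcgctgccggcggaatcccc
These motifs were searched on both strands in windows of 300 bases, 250 before and 50 after the start. Of the 87 called genes, 65 matched a promoter by symbol. The NF-kB motif was found in 7 of 37 promoters of the genes called lower (18.9%) and in 5 of 49 promoters of the genes called higher (10.2%), beside 8.46% of all 32851 promoters. The cAMP response element was in 3 of the 37 (8.11%) and in 0 of the 49, beside 1.79% of all promoters, and the CArG box in 1 of the 37 (2.70%), that of Dusp5, beside 1.63%. The AP-1 motif TGANTCA was in 1 of the 37 (2.70%) and 1 of the 49 (2.04%), beside 7.81%. A match is a description of the letters in the window, and neither binding nor use of these motifs was measured.

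Targets of cAMP and CREB gave the largest fall of the comparison. Of 18 tested, 3 fell and none rose, with a median of -0.09. At an unadjusted p under 0.05, 1 was higher and 6 lower (38.9%, beside 8.71% of all genes). Rgs16, which shortens signalling of G protein-coupled receptors, had values of 112, 137 and 73.1 at 0 h and of 17.8, 13.1 and 18.4 at 2 h. The groups were well apart (6.07-fold lower, log2 -2.60, SE 0.53, adjusted p = 0.0110), yet the call was lost without library 2 at 0 h or library 2 at 2 h. Crem, whose short isoform ICER represses CREB targets, fell from 265, 201 and 246 to 149, 152 and 160 (log2 -0.61, SE 0.14, adjusted p = 0.0255), and kept its call in only 1 of the 6 fits that leave a library out, the one without library 2 at 0 h. The third was Nr4a1, which is on both lists.

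Cytip, an intracellular scaffold of leukocyte adhesion, combined a high level with a large fall. Its values were 1328, 1381 and 986 at 0 h and 238, 315 and 348 at 2 h (4.10-fold lower, log2 -2.03, SE 0.21, adjusted p = 9.14e-07). Trib1, a pseudokinase that directs protein degradation, was at 331, 371 and 356 and then at 108, 111 and 121 (log2 -1.63, SE 0.15, adjusted p = 1.72e-07). Trib1 lies below the abundance set for naming genes and was picked after its values were seen.

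The cytokine genes Il1b and Tnf moved in opposite directions. Of 20 cytokine and growth factor genes tested, 2 rose, 1 fell, and the median was -0.02. Of the 20, 3 were higher and 3 lower at an unadjusted p under 0.05 (30%, beside 8.71% of all genes). Il1b (chromosome 2, 129364570 to 129371139, minus strand), which encodes the precursor of IL-1 beta, had values of 97.2, 164 and 165 at 0 h and of 37.6, 27.1 and 18.4 at 2 h. The highest 2 h library was under the lowest 0 h library, and the fall was 5.03-fold (log2 -2.33, SE 0.33, adjusted p = 1.62e-04). It was called in all fits run, with adjusted p values of 4.34e-07 to 0.0266. Tnf (chromosome 17, 35199381 to 35202007, minus strand), which encodes TNF, rose over the same time from 349, 452 and 417 to 754, 694 and 630. The rise was 1.71-fold without overlap (log2 0.77, SE 0.15, adjusted p = 0.00547), and was not called without library 1 at 2 h (log2 0.71). Pdgfb, a growth factor for pericytes and glia, rose from 1385, 1617 and 1788 to 2355, 2076 and 2051 (log2 0.44, SE 0.10, adjusted p = 0.0361), a call kept only without library 3 at 0 h among the 6 fits that leave a library out.

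No chemokine passed limma's test, although several values were far apart. Of 14 tested, 2 had a higher and 4 a lower value at an unadjusted p under 0.05 (42.9%, beside 8.71% of all genes), and the median was -0.15. Limma with a pseudocount of 10 called 2 of them lower, voom and the fit to the 6 libraries alone called 1 lower each, and array weights called 2 lower and 1 higher. Ccl2, which attracts monocytes, stood at 290, 279 and 214 at 0 h and at 76.1, 127 and 102 at 2 h, apart in all libraries, with a log2 difference of -1.36 (SE 0.49, adjusted p = 0.326). Cxcl10, an interferon-responsive chemokine, had means of 157.7 and 92.51 (log2 -0.81, SE 0.26, adjusted p = 0.217). The opposite sign was seen for Ccl3, with means of 1518 and 2070 (log2 0.47, adjusted p = 0.193), and for Cxcl2, a neutrophil attractant, with 105.9 and 174.7 (log2 0.82, adjusted p = 0.416).

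The NF-kB subunits and their feedback inhibitors gave no call either. Of 22 tested, 6 had a higher and 2 a lower value at an unadjusted p under 0.05 (36.4%, beside 8.71% of all genes), with a median of 0.08. Voom called 1 lower, and array weights called 3 higher and 2 lower. Nfkbia, which encodes the inhibitor that holds NF-kB in the cytoplasm, had means of 879.7 at 0 h and 926.4 at 2 h (log2 0.07, SE 0.11, adjusted p = 0.891). Tnfaip3, the deubiquitinase A20, had means of 443.6 and 637.8 (log2 0.52, SE 0.14, adjusted p = 0.0852). The relay kinase Map3k8, which links TNF and Toll-like receptors to ERK, was called from the list of TNF and IL-1 receptors and relays, where 1 of 20 rose and none fell. It moved from 163, 208 and 142 to 288, 253 and 272 (log2 0.68, SE 0.16, adjusted p = 0.0473), and that call was kept in only 1 of the 6 fits that leave a library out, the one without library 2 at 0 h.

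**Figure D2:**
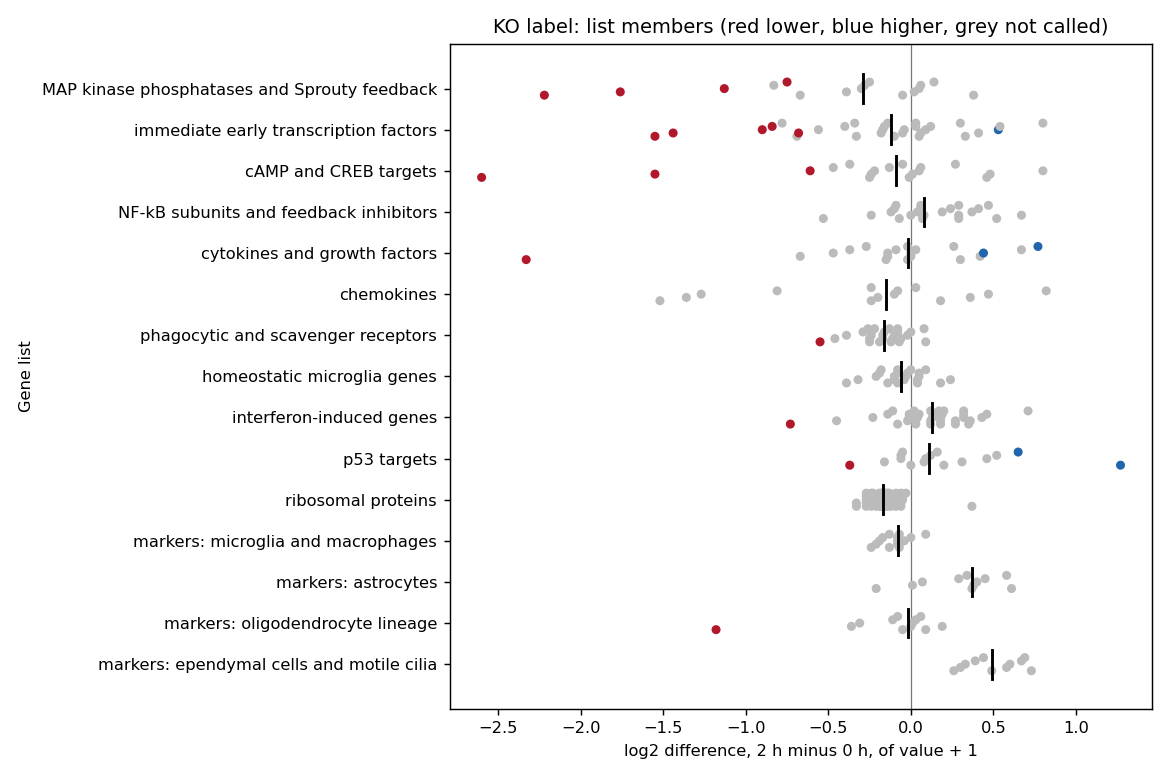
The log2 difference from 0 h to 2 h of each tested member of 15 gene lists in the libraries labelled PD-1 KO, with the median of the list as a black line, called genes in red (lower) or blue (higher) and genes not called in grey. Calls on the lower side are densest in the top lists (4 of 16 phosphatase and Sprouty genes). The ribosomal protein and microglia marker genes have no call, with medians of -0.17 and -0.08. Of 71 ribosomal protein genes, 70 lie below 0.

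Both Cd14 and C5ar1, receptors for inflammatory mediators, were called lower at 2 h. Cd14, the co-receptor of lipopolysaccharide, went from 5291, 5760 and 6414 to 3938, 3435 and 3604 (1.59-fold lower, log2 -0.67, SE 0.13, adjusted p = 0.00751), and was not called without library 3 at 0 h or library 2 at 2 h. C5ar1, the receptor of the complement fragment C5a, went from 4920, 5342 and 5119 to 3657, 3264 and 3563 (1.47-fold lower, log2 -0.55, SE 0.10, adjusted p = 0.00456), and was called in all fits run. Of the 17 Toll-like receptor genes tested, with a median of -0.08, Cd14 was the 1 call, and of the 26 phagocytic and scavenger receptors, with a median of -0.16, C5ar1 was the 1 call.

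The 4 receptors of lipid mediators given here, 2 in each direction, were picked among called genes. They do not come from a list of such receptors, so no share of tested members stands beside their number. Ptger4, the EP4 receptor of prostaglandin E2, which raises cAMP, rose from 249, 304 and 251 to 579, 527 and 546. The gap between the groups was several times the spread within them (2.06-fold, log2 1.04, SE 0.12, adjusted p = 2.64e-06). Ptafr, the receptor of platelet-activating factor, rose from 321, 377 and 401 to 546, 503 and 542 (log2 0.54, SE 0.10, adjusted p = 0.00396). The lysophosphatidic acid receptor Lpar6 fell from a mean of 679.9 to 399.6 (log2 -0.75, adjusted p = 0.00456), and was not called without library 2 at 0 h. S1pr1, a receptor of sphingosine 1-phosphate picked after its values were seen, fell from a mean of 2090 to 1571 (log2 -0.41, adjusted p = 0.00373), and was not called without library 1 at 2 h. Ptafr, Lpar6 and S1pr1 were not called in the fit to the 6 libraries alone. Of 16 genes of prostaglandin synthesis and receptors Ptger4 was the 1 call, and the median was 0.02. Ptgs2, the inducible cyclooxygenase, had means of 36.13 and 66.05 and did not pass (log2 0.85, SE 0.42, adjusted p = 0.586).

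Cd274, the gene of the PD-1 ligand PD-L1, was higher after 2 h. Its values were 329, 324 and 245 at 0 h and 466, 537 and 553 at 2 h (1.74-fold, log2 0.80, SE 0.13, adjusted p = 6.56e-04). It was the 1 call among 12 genes of MHC class II and costimulation, was called whichever library was left out, and was not called in the fit to the 6 libraries alone (adjusted p = 0.0558).

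Kcnj2 and Rgs3 were among the largest rises of the more abundant genes. Kcnj2, which encodes the inward rectifier potassium channel Kir2.1, was at 652, 720 and 689 at 0 h and at 1597, 1324 and 1529 at 2 h (2.15-fold, log2 1.11, SE 0.12, adjusted p = 2.04e-06). Rgs3, of the same protein family as the fallen Rgs16, rose from 213, 205 and 197 to 414, 428 and 401 (2.02-fold, log2 1.01, SE 0.11, adjusted p = 2.64e-06). The pair of Rgs genes therefore moved in opposite directions, each with groups that did not overlap.

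Of 16 p53 targets tested, 2 rose, 1 fell, and the median was 0.11. At an unadjusted p under 0.05, 4 were higher and 1 lower (31.2%, beside 8.71% of all genes). Gadd45b, a growth arrest gene that also answers to NF-kB and TGF-beta, rose from 84.8, 99.6 and 75.4 to 236, 203 and 190 (2.41-fold, log2 1.27, SE 0.27, adjusted p = 0.0174). The Gadd45b call was lost without library 3 at 0 h or without any 1 of the 2 h libraries. Of 15 glucocorticoid targets, 2 rose, 1 fell, and the median was 0.09. Of the 15, 5 were higher and 5 lower at an unadjusted p under 0.05 (66.7%, beside 8.71% of all genes). Ddit4, an inhibitor of mTOR, was at 240, 146 and 134 and then at 257, 360 and 356 (log2 0.93, SE 0.22, adjusted p = 0.0467). The metallothionein Mt2 was at 1657, 1180 and 1114 and then at 1714, 2519 and 2304 (log2 0.73, SE 0.18, adjusted p = 0.0499). In both genes library 1 at 0 h and library 1 at 2 h nearly met, and both calls were lost without library 2 or 3 at 0 h or at 2 h. The third glucocorticoid target called was Dusp1, which fell.

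Genes that define microglia gave no call. Of 22 homeostatic microglia genes tested none was called, at an unadjusted p under 0.05 there were 0 higher and 1 lower (4.55%, beside 8.71% of all genes), voom called 0, array weights called 1 lower, and the median was -0.06 (0.00 with quantile normalization). Cx3cr1, the fractalkine receptor, had values of 1413, 1729 and 2701 at 0 h and of 1991, 1514 and 1768 at 2 h. The 2 h libraries lay inside the 0 h range, with a log2 difference of -0.10 (SE 0.19, adjusted p = 0.910). P2ry12 had means of 108.5 and 112.0, Csf1r of 10317 and 9645, Trem2 of 11168 and 11018, and Apoe of 100396 and 92056. Their log2 differences were 0.05, -0.08, -0.01 and -0.11, and their signs turn when a library is left out. The list of 32 lysosome genes had no call, no member at an unadjusted p under 0.05 and none called by voom, with a median of -0.04 (0.03 with quantile normalization).

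Markers of the cell types that such a culture can hold were summed per library. The summed value of 15 microglia and macrophage markers ran from 99744 to 148150 at 0 h and from 103025 to 124166 at 2 h. Astrocyte markers, 11 genes, ran from 11566 to 22838 and from 14438 to 23629. Their median log2 difference was 0.37, 10 of 11 were positive, 1 was higher at an unadjusted p under 0.05, and neither limma nor voom called any, while array weights called 1 higher. Gfap, the astrocyte intermediate filament, was at 9017, 3799 and 4149 at 0 h and at 4995, 8354 and 6205 at 2 h, so that the highest value was in a 0 h library.

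Ependymal and motile cilia markers, 11 genes, ran from 1764 to 5803 at 0 h and from 2523 to 4708 at 2 h, with a median of 0.49, no call by limma or voom and none at an unadjusted p under 0.05. That median was 1.19 without library 1 at 0 h and 0.18 without library 3 at 0 h. Fibroblast and vessel markers, 8 genes, had a median of 0.39, and neuron markers, 9 genes, of -0.19, again without a call by limma or voom. Fewer cells of a type and less RNA per cell cannot be told apart in these bulk libraries. The part of these markers in the called genes was not tested.

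The oligodendrocyte lineage gave the only marker that was called. Olig2, a transcription factor of oligodendrocyte progenitors, was at 389, 400 and 356 at 0 h and at 163, 153 and 190 at 2 h (2.26-fold lower, log2 -1.18, SE 0.21, adjusted p = 0.00341). The other 11 markers of its list were not called, the summed value of all 12 overlapped (9240 to 11156 at 0 h, 9252 to 9906 at 2 h), and the median was -0.02. Its relative Olig1 was at 793, 751 and 938 and then at 718, 671 and 602 (log2 -0.31, SE 0.22, adjusted p = 0.738).

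Ribosomal protein genes showed a small displacement to 1 side without a call. Of 71 tested, 70 had a lower mean at 2 h, with a median of -0.17. None was called by limma or by voom, and 2 were lower at an unadjusted p under 0.05. Without library 3 at 0 h the median was -0.04, with 50 of 71 negative, so the displacement rests largely on that library.

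The same 2 h of culture in the libraries labelled WT gave the comparison for what differs between the labels. The cultures of the labels already differed in markers of other cells at 0 h. Summed astrocyte markers ran from 11566 to 22838 under the PD-1 KO label and from 2401 to 3935 in WT. Ependymal markers ran from 1764 to 5803 and from 193 to 485. How far this enters the differences below was not tested. The difference between the changes, that of the PD-1 KO label minus that of WT, was tested in the same fit and passed for 101 genes, 47 on the higher side (0.343%) and 54 on the lower (0.394%). This count is unstable, and ran from 15 calls without library 2 labelled WT at 0 h to 381 calls without library 1 labelled PD-1 KO at 0 h. Among the 87 genes called over time, Il1b was the clearest case. In the libraries labelled WT it was at 19.7, 8.20 and 9.92 at 0 h and at 30.6, 12.8 and 13.7 at 2 h, all under the 0 h values of the PD-1 KO label. Its change was 0.54 in WT against -2.33 under the PD-1 KO label, and the difference was -2.87 (adjusted p = 0.00308). The call held when any of the 12 libraries was left out, and was lost with voom and in the fit to the 4 groups alone, with a highest adjusted p of 0.0688.

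Ets2 differed in size rather than in direction. It fell by 0.75 on the log2 scale in WT, from 843, 876 and 844 to 527, 498 and 501, and by 1.47 under the PD-1 KO label, a difference of -0.73 (adjusted p = 0.0181) that was lost in 4 of the 12 fits that leave a library out. At 0 h the libraries labelled PD-1 KO all lay above those labelled WT (1374 to 1699 against 843 to 876), and at 2 h the gap was narrow (540 to 604 against 498 to 527). For Fos the changes were -1.44 and -1.19, for Spry4 -2.22 and -2.37, for Dusp5 -1.76 and -1.67, for Rgs16 -2.60 and -2.53, for Ptger4 1.04 and 1.41, and for Tnf 0.77 and 1.17, the PD-1 KO label first. None of these 6 differences passed the test, with adjusted p from 0.344 to 0.981. Cd14 fell under the PD-1 KO label and changed by 0.05 in WT, with an adjusted p of 0.0633 for the difference, and for Cd274 (0.80 and 0.15) it was 0.0822.

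**Figure D3:**
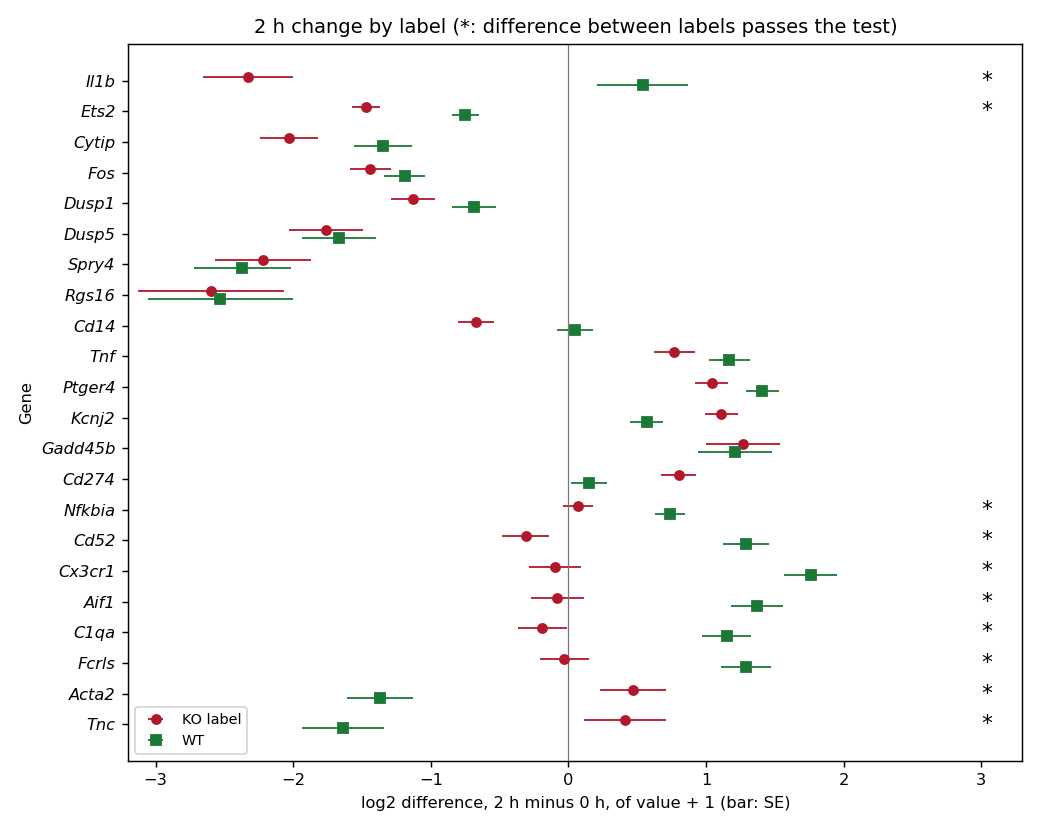
The log2 difference from 0 h to 2 h, with its standard error as a bar, for 22 genes in libraries labelled PD-1 KO (red circles) and WT (green squares). An asterisk marks the genes whose difference between the labels passed the test, such as Il1b (-2.33 and 0.54) and Cx3cr1 (-0.10 and 1.76), while Spry4, Dusp5, Rgs16 and Gadd45b lie side by side.

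Among the more abundant genes, the largest differences on the lower side lay in microglial genes that were not called over time under the PD-1 KO label. Cx3cr1 was at 622, 447 and 365 in WT at 0 h and at 1715, 1352 and 1728 at 2 h, so that the libraries labelled WT overlapped at 2 h, and not at 0 h, with those labelled PD-1 KO. The change was 1.76 in WT and -0.10 under the PD-1 KO label, a difference of -1.87 (adjusted p = 7.22e-04) that was called in all fits run. Aif1, the microglial marker IBA1, changed by 1.37 and -0.08 (difference -1.45, adjusted p = 0.0100), and C1qa, a chain of complement C1q, by 1.15 and -0.19 (difference -1.34, adjusted p = 0.0109). On the other side were Acta2, the actin of smooth muscle, with -1.37 and 0.47 (difference 1.84, adjusted p = 0.0100), and Tnc, a matrix glycoprotein made by glia, with -1.64 and 0.41 (difference 2.05, adjusted p = 0.0181). Cell type markers were also summed in the libraries labelled WT. The microglia markers ran from 118636 to 132457 at 0 h and from 152960 to 176361 at 2 h. That sum includes Aif1 and C1qa, so it is not separate from their change. The astrocyte markers overlapped, from 2401 to 3935 and from 1619 to 2572. The ependymal markers ran from 193 to 485 and from 144 to 185. The part of cell types in the differences between the labels was not tested. The ribosomal protein genes, 71 tested, all had a positive difference in WT (median 0.46). Between the labels the difference was negative for all 71 (median -0.62), and 1 was called. At an unadjusted p under 0.05, 69 of them were lower, beside 876 of the 13722 genes tested. How far this rests on single libraries was not tested.

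At 8 h without amyloid-beta, some of these genes had moved back and others had gone further. The test of 8 h against 2 h in the libraries labelled PD-1 KO passed for 141 genes on the higher side (1.03%) and 129 on the lower (0.94%). Il1b stood at 329, 220 and 249 at 8 h, above all 2 h libraries and above all 0 h libraries (log2 difference from 2 h of 3.25, adjusted p = 6.29e-07). Its difference at 8 h from 0 h did not pass the test in limma (log2 0.92, SE 0.33, adjusted p = 0.149). Tnf went on rising to 1354, 1385 and 1442 (log2 1.01, adjusted p = 1.10e-04). Ets2 returned to 1539, 1330 and 1167 (log2 1.23, adjusted p = 4.50e-08), overlapping its 0 h values.

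Fos and Nr4a1 were both called higher at 8 h than at 2 h, with calls that depend on single libraries. Fos was at 1482, 1747 and 1746 at 8 h, between its 2 h and 0 h values (log2 0.63, adjusted p = 0.0224), and Nr4a1 at 90.3, 92.3 and 114, inside its 0 h range (log2 1.41, adjusted p = 0.0106). The Fos call was kept in 1 of the 6 fits that leave a library out, and was lost without the trend. That of Nr4a1 was kept in 3 of the 6. Cytip did not return but fell again, to 124, 145 and 131 (log2 -1.15, adjusted p = 0.00148). For Dusp5, at 22.6, 25.5 and 17.1, and for Ptger4, at 411, 544 and 440, the 8 h values did not pass the test against 2 h (log2 0.02 and -0.25, adjusted p = 0.993 and 0.397). Spry4, at 19.4, 39.3 and 26.2, had a log2 difference of 1.17 from 2 h that did not pass (adjusted p = 0.0919).

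**Figure D4:**
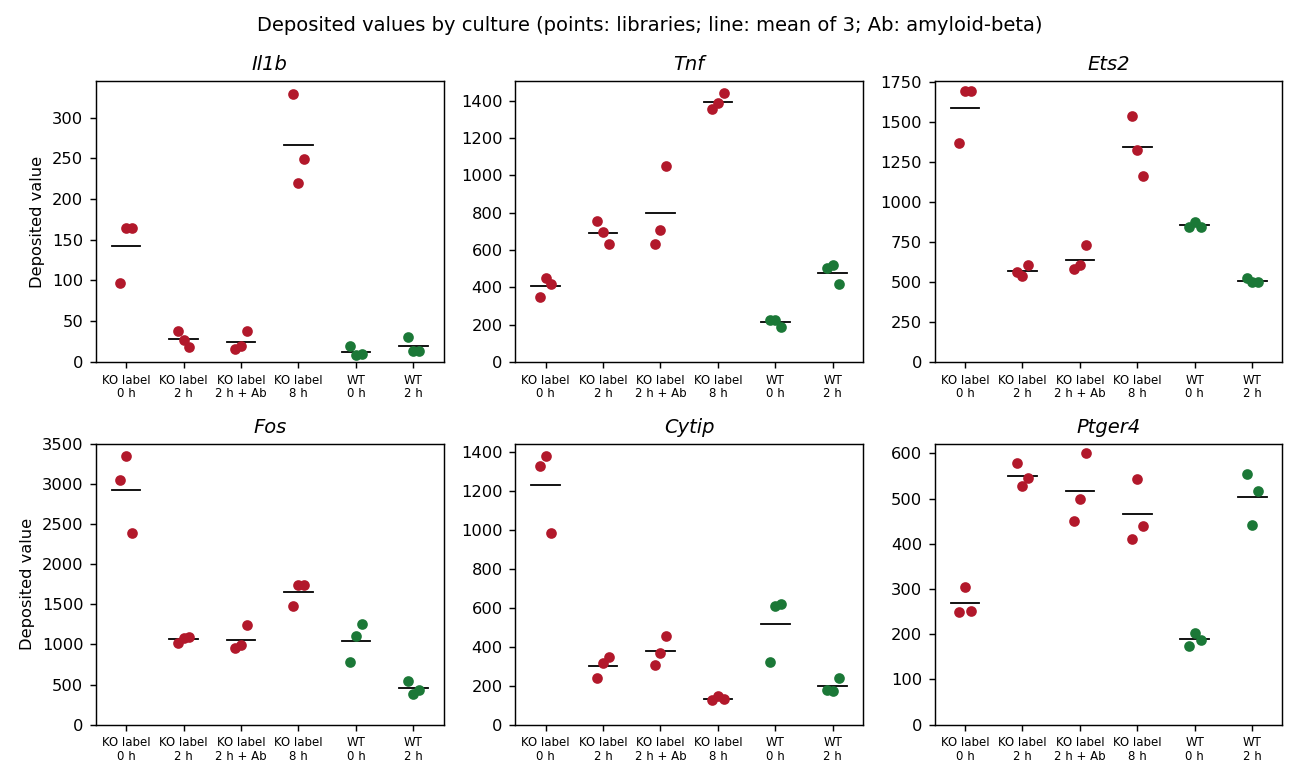
Deposited values of 6 genes in each library (points) with the mean of 3 (line), in red for the PD-1 KO label at 0 h, 2 h, 2 h with amyloid-beta and 8 h, and in green for WT at 0 h and 2 h. Il1b is low at 2 h and high at 8 h (220 to 329), Tnf climbs to 1354 to 1442, and Cytip goes on falling to 124 to 145.

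The libraries labelled PD-1 KO at 2 h with amyloid-beta give the values of a separate set of 3 cultures at the same time. Amyloid-beta against none at 2 h gave 0 calls in limma, with 615 genes at an unadjusted p under 0.05. In these cultures Il1b was at 16.3, 20.1 and 37.4, Tnf at 633, 705 and 1052, Fos at 950, 998 and 1239, Dusp1 at 431, 367 and 608, and Ptger4 at 451, 498 and 600. Each of these sets of values overlapped with the 2 h cultures without amyloid-beta, and none overlapped with the 0 h cultures. These genes are a part of the 87 called, and such overlap was not counted over all of them. Not all called genes were alike. Rasgef1b was at 716, 650 and 822 with amyloid-beta, overlapping its 0 h values (581, 710 and 776) and below its 2 h values (1166, 845 and 980). Pmaip1, at 273, 271 and 328, lay between its 0 h values (233, 245 and 238) and its 2 h values (395, 360 and 372).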

How the data were processed

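RNA was sequenced in 30 libraries (10 groups of 3). The tools listed, per the submitters' processing notes, are DESeq2 (no version), R 3.0.2, Partek 6.6 and HISAT 0.1.5, with mm10 as the genome build, and the step each served is not stated. How reads were counted per gene, and with which annotation, is not given in the sources used here, so reads of paralogs or antisense genes may be split. Judged from its own steps, each deposited signal value is a read count scaled by the library's size factor, with anything under 1 set to 1. The file holds a gene only where some library is high enough, the lowest maximum being 12.2. In the 6 libraries compared, the floor can hide up to 1 read, and every value of up to 5000 reads was a whole multiple of its library's step within a tolerance of 0.05.

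Values were tested as log2(value + 1) in limma 3.58.1 (R 4.3.3), with 1 mean per group over all 30 libraries, an intensity trend, 20 residual degrees of freedom, genes with a value of at least 10 in at least 3 libraries (13722 of 13788), and Benjamini-Hochberg adjustment at a threshold of 0.05. All groups share 1 estimate of the spread. Differences between labels are interaction terms. Tests were two-sided. Across genes, libraries of a group correlated with Pearson r from 0.9746 to 0.9870. Data were also simulated for this comparison (13492 genes), with 1 negative binomial dispersion of 0.03 for every gene and no shifts particular to a library. The other groups were given the means of 0 h, and genes of low mean were not changed. In these data the fit recovered 72 of 100 genes changed 2-fold and 100 of 100 changed 4-fold, with 9 false calls of 181. Whether these rates hold in the deposited data was not tested.

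Members and gene lists (41, of which 2 had no gene tested) were chosen with earlier results of these data known. Genes were named by rule: up to 12 in each direction by fold among called genes above the median abundance with no overlap, up to 5 called members of each list in each direction, 30 genes given whatever they did, and up to 6 in each direction for the other comparisons. The text gives part of them. Positions are from GENCODE M21 (GRCm38) and promoters from RefSeq (GRCm38.p6). Figures were drawn with matplotlib 3.10.9. Alternatives changed the pseudocount, filter, scaling, variance model, the libraries in the fit, and 1 library at a time.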

Additional observations from a re-analysis of the deposited data

Results flagged for a closer look

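The change over 2 h differed between the labels for 101 genes by the interaction test, and these results are given as values, with no cause tested. Among the genes called over time under the PD-1 KO label, the difference (PD-1 KO label minus WT, log2) was -2.87 for Il1b, -0.73 for Ets2, 0.70 for Adamts1, an extracellular protease, and -2.98 for Tnfsf13, the cytokine APRIL. Tnfsf13 was low, at 46.7, 31.3 and 33.1 at 0 h and at 19.8, 11.5 and the floor of 1 at 2 h, and its fall over time was called in 2 of the 6 fits that leave a library out (log2 -2.90 to -1.22). Its difference between the labels was called in 5 of the 12 such fits (-3.66 to -1.97). For Adamts1 the call held in 3 of the 12.

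Among genes not called over time under that label, the difference on the lower side was -1.87 for Cx3cr1, -1.60 for Cd52, -1.45 for Aif1, -1.34 for C1qa, -1.33 for Fgd2 and -1.32 for Fcrls. It was -0.67 for Nfkbia, called in 4 of the 12 fits. On the higher side it was 2.05 for Tnc, 1.84 for Acta2, 1.59 for Sorbs2, 1.57 for Fstl1, 1.48 for Wwc1 and 1.40 for Ptrf. Il1b, Cd52 and Cx3cr1 were called in all 12 of these fits, Aif1 and Acta2 in 11 (not without library 2 labelled WT at 0 h), C1qa and Fcrls in 10, Tnc and Ets2 in 8, Fstl1 in 7, Fgd2, Wwc1 and Sorbs2 in 6 and Ptrf in 5.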

How the results depend on the processing

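The 87 calls over 2 h kept their sign in every fit in which they were tested. Array weights gave 684 calls, and a fit to the 6 libraries alone gave 45, of which 38 were among the 87. The other alternatives gave 69 (without the trend) to 117 (quantile normalization), with 81 from voom on recovered reads. Leaving out a library gave 46 to 103. In all alternatives run, 25 of the 87 were called. For the difference between the labels (101 calls), array weights gave 1327, no trend 38, the 4 groups alone 36, and leaving out a library 15 to 381. For 8 h against 2 h (270 calls), array weights gave 854 and leaving out a library 148 to 207. The cause was not tested. A count model with negative binomial errors was planned and not run, because the floor hides low counts.

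Signs turned only for uncalled genes near 0. Leaving out a library gave -0.29 to 0.19 for Aif1, -0.22 to 0.04 for Apoe, -0.39 to 0.07 for C1qa, -0.21 to 0.07 for Csf1r, -0.31 to 0.16 for Cx3cr1, -0.07 to 0.17 for P2ry12, -0.13 to 0.19 for Tmem119 and -0.09 to 0.09 for Trem2. Quantile normalization gave 0.02 for Csf1r, 0.08 for Trem2 and -0.03 for P2ry12. Array weights gave 0.01 for Trem2 and 0.05 for Tmem119, and voom 0.03 for Tmem119. No paired analysis was possible because the labels give no replicate numbers shared between the groups compared. Depth limits genes of few reads: Klhl38, called higher (log2 1.98), rested on 3, 4 and 4 reads at 0 h. Several of the largest falls also rested on few reads at 2 h. These were 13, 23 and 3 reads for Spry4, 18, 16 and 9 for Rgs16, 14, 29 and 14 for Dusp5, and 38, 33 and 9 for Il1b.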

Other observations

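Under the PD-1 KO label, 4 genes that were not called from 0 h to 2 h and were named by rule from the comparison of 8 h with 2 h, without amyloid-beta, are given as values. Gpr84, a receptor of medium-chain fatty acids, had a mean of 457.8 at 0 h, 413.3 at 2 h and 1160 at 8 h (log2 difference of 8 h from 2 h of 1.48, limma adjusted p = 2.74e-06). Nlrp3, the inflammasome sensor, had means of 567.2, 389.0 and 923.3 (log2 1.24, adjusted p = 2.74e-06). Clec5a, a myeloid lectin, had means of 326.8, 316.6 and 626.0 (log2 0.98, adjusted p = 2.89e-04). In the other direction Oasl2, an interferon-induced gene, had means of 336.1, 397.3 and 179.7 (log2 -1.11, adjusted p = 0.00841). The Oasl2 call was kept in 4 of the 6 fits that leave a library out, and those of Gpr84, Nlrp3 and Clec5a in all 6.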
